A study of Homo sapiens with 9 samples.

Results

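The genes described here encode the ATP-dependent chromatin remodellers and the numbered bromodomain proteins of SKNO-1, a human cell line from an acute myeloid leukaemia, with a fusion protein that the labels list as AML-ETO. Members were the genes whose symbol begins with SMARC, INO80 or ARID followed by a digit, or consists of CHD or BRD followed by digits only, which gave 46 of the 25680 gene symbols in the count tables. RNA was sequenced from 9 libraries in 3 groups of 3: a control labelled EV, and cells given either of 2 short hairpin RNAs against ASXL2, labelled SH2 and SH3. All 9 libraries came from this same line with its fusion protein, and each group held libraries numbered 1, 13 and 25, numbers whose meaning the labels do not give. The study describes the libraries of a group as biological replicates, but nothing in the labels says that they came from separate cultures, so the p-values measure the spread between these libraries. Of the 46 members, 43 had enough reads to be tested among 14199 genes. CHD5 and ARID3C were near 0, with at most 8 and 5 reads in any library, and SMARCA1 had no read in any of the 9 libraries, against a limit for a count of 0 (3 reads) of 0.0847 to 0.108 CPM (a gene's reads divided by the normalised library size, on a per-million scale).

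Chromatin remodellers use the energy of ATP to slide, eject or exchange nucleosomes, and each family is built around a related motor subunit. The SMARC genes encode the BAF (SWI/SNF) complexes, whose alternative motors SMARCA4 and SMARCA2 join shared core subunits and either an ARID1 protein, ARID2 or BRD9. The CHD proteins carry chromodomains, which in CHD1 read H3K4 methylation, and CHD4 or CHD3 drives the NuRD co-repressor complex. The INO80 complex exchanges the histone variant H2A.Z, and the BET proteins, such as BRD2 and BRD3, bind acetylated histones through paired bromodomains and help RNA polymerase II to begin and elongate transcripts.

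The targeted gene followed the labels. ASXL2, a Polycomb-associated gene whose product activates the histone deubiquitinase BAP1, stood at 67.9, 67.9 and 74.7 CPM in the EV libraries 1, 13 and 25, at 30.4, 36.2 and 36.2 CPM in SH2 and at 26.9, 29.1 and 41.1 CPM in SH3. Every knockdown library lay below every EV library. The log2 difference was -1.08 (SE 0.13), which did not pass edgeR's quasi-likelihood test with Benjamini-Hochberg adjustment over all genes (adjusted p = 0.177). With the library number added to the fit as a replicate block it was -1.09 (SE 0.08) and passed the same edgeR test (Benjamini-Hochberg adjusted p = 0.00098). Same-numbered libraries deviated together in each of the 9 pairs between groups, and the number was therefore used as a block in a second fit. Of 5 markers of the line, 4 reached 1 CPM, CD34 being the exception. Markers of T cells and erythroid cells summed to at most 0.375 CPM in any library, and those of B cells to 50.3 to 67.5 CPM (CD79B and CD79A, with MS4A1 at 0). The stromal list summed to 115 to 425 CPM, almost wholly from VIM, which myeloid cells also express, while COL1A2 was at 0. Its upper value was that of SH3 1 alone, and the EV and SH2 libraries reached at most 210.5 and 230.6 CPM. The part of these signals in the results was not tested. In bulk RNA, fewer cells of a type and less RNA per cell cannot be told apart.

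When both shRNAs were compared with EV, the remodeller genes sat slightly lower in the knockdown libraries as a set, but no member passed the test. Of the 43 tested members, 30 had a log2 difference below 0 (69.8%, against 47.0% of all genes tested), and their median was -0.10, against 0.01 over all genes. Without the block, edgeR's quasi-likelihood test called 0 members (background 0.0% of the 14199 genes), and DESeq2 called 0 members among 56 genes. At an unadjusted edgeR p under 0.05, 5 members were lower (ARID1A, CHD9, CHD7, CHD4 and CHD8, 11.6% of the members) against 4.16% of all genes, and none was higher. With the replicate block, 2 of the 43 members passed and both fell (4.65%, against 1.1% of all genes called and 0.845% called lower): CHD7 and CHD9. The summed level of all members was 4482 to 4540 CPM in EV and 3841 to 4393 CPM in the 6 knockdown libraries, so these ranges did not overlap. How often sums over other sets of genes separate in this way was not counted.

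**Figure D1:**
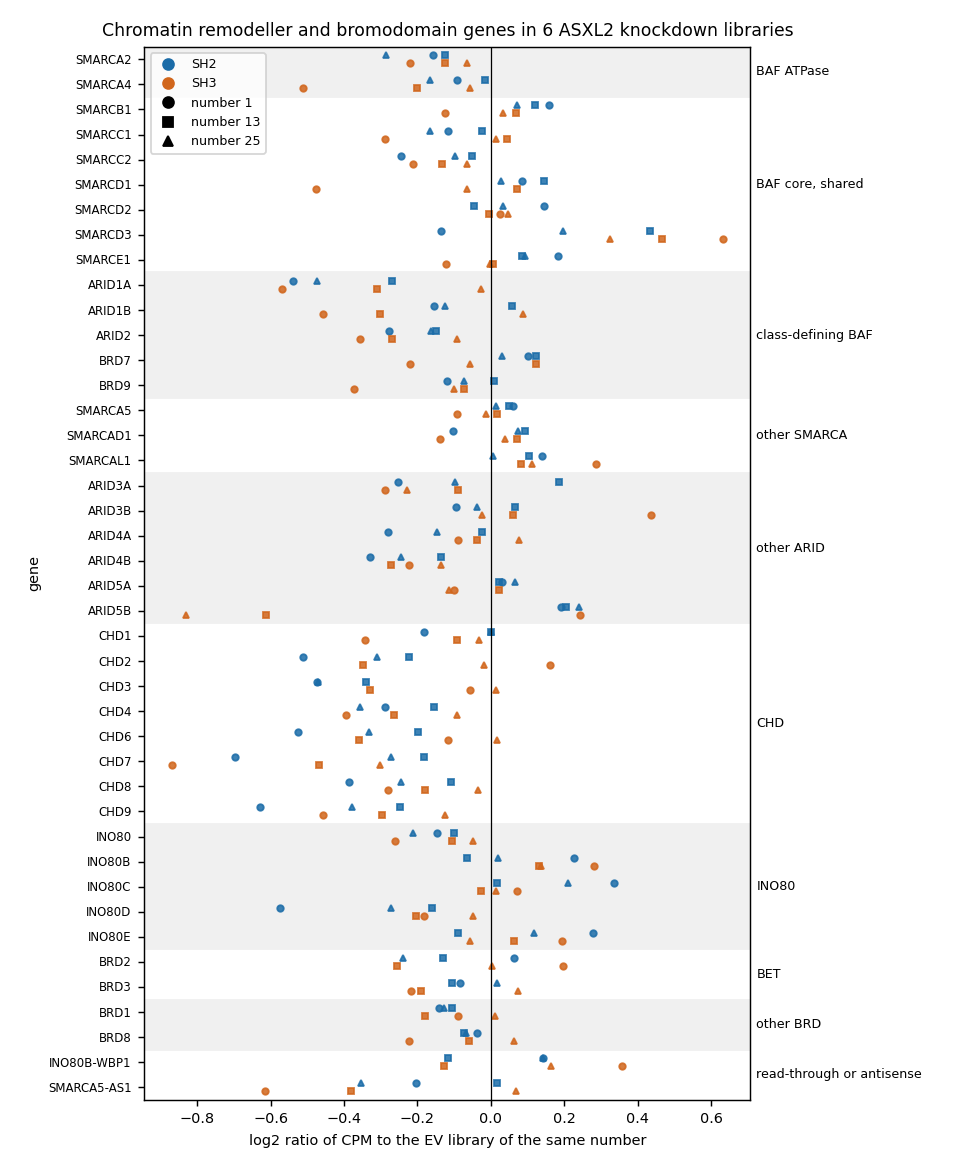
Log2 ratio of each knockdown library to the EV library of the same number (horizontal axis, log2 of the CPM ratio) for 42 of the 43 tested members in their role groups, with SH2 and SH3 by colour, the number by marker shape and a line at 0. Points of the 8 CHD genes lie mostly left of 0, with CHD7 reaching -0.87 in SH3 1, whereas those of the core BAF subunits lie on both sides.

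Order between libraries showed the same tilt. In 12 members (27.9%) the knockdown library was below the EV library of its number in all 6 pairs, against 11.6% of all genes, and these were ARID1A, ARID2, ARID4B, CHD4, CHD7, CHD8, CHD9, INO80, INO80D, SMARCA2, SMARCA4 and SMARCC2. SMARCAL1, which anneals single-stranded DNA at stalled replication forks, was the 1 member (2.33%) above EV in all 6 pairs, against 11.6% of all genes in that direction. A stricter order, in which all 6 knockdown libraries lay below all 3 EV libraries, was met by 3 members (6.98%, against 2.61% of all genes): ARID1A, CHD4 and CHD7. No member had all 6 knockdown libraries above all 3 EV libraries, against 2.16% of all genes.

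All 8 tested CHD genes had a log2 difference below 0, from -0.44 to -0.10, with a median of -0.25, and their summed level was 1150 to 1259 CPM in EV and 926 to 1097 CPM in the knockdown libraries. This was the lowest median of the role groups for both shRNAs together, but not for SH3 alone (-0.16, against -0.22 for the class-defining BAF subunits and -0.18 for the BAF motors), and under a correction for transcript length and GC content, described with the length results, it was -0.10. CHD7 (row NM_017780; GRCh37 chromosome 8, 61591299 to 61780587, plus strand), a remodeller bound at enhancers and mutated in CHARGE syndrome, stood at 59.4, 67.0 and 62.4 CPM in EV 1, 13 and 25, at 36.6, 59.0 and 51.7 CPM in SH2 and at 32.5, 48.5 and 50.6 CPM in SH3. The 6 knockdown libraries were all below EV, although SH2 13 came within 1 CPM of the lowest EV library, and in both shRNAs the library numbered 1 was the lowest. Its log2 difference was -0.44 (SE 0.17, edgeR's Benjamini-Hochberg adjusted p = 0.728) without the block and -0.47 (SE 0.09, adjusted p = 0.0462) with it, and -0.27 with the length correction.

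CHD9 (NM_025134; GRCh37 chromosome 16, 53088903 to 53363062, plus strand), a close relative of CHD7 that co-activates nuclear receptors, stood at 123, 123 and 100.3 CPM in EV, at 79.8, 104 and 77.2 CPM in SH2 and at 89.8, 100.3 and 92.0 CPM in SH3. The groups overlapped, since SH2 13 exceeded EV 25, but each knockdown library was below the EV library of its own number. Its log2 difference was -0.35 (SE 0.11, edgeR's Benjamini-Hochberg adjusted p = 0.649) without the block and -0.36 (SE 0.07, adjusted p = 0.0488) with it, and -0.20 with the length correction. Both block calls stood close to the threshold and were lost when most single libraries were left out. Neither was made without SH2 1, SH2 13, SH2 25, SH3 13, SH3 25, EV 1, EV 13 or EV 25, each left out alone. Those fits called 0.0141% to 0.613% of all genes, against 1.1% with all 9 libraries. With 1 library left out, the log2 difference ranged from -0.561 to -0.305 for CHD7 and from -0.412 to -0.26 for CHD9. The edgeR adjusted p (Benjamini-Hochberg) over the 9 such fits ranged from 0.00905 to 0.263 for CHD7 and from 0.0119 to 0.356 for CHD9. Without SH3 1 the block fit called 10 members (ARID1A, ARID2, ARID4B, CHD2, CHD3, CHD4, CHD6, CHD7, CHD9 and INO80D), when 12.2% of all genes were called. Without the 3 libraries numbered 1, CHD7 (-0.30, edgeR's Benjamini-Hochberg adjusted p = 0.0266) was the 1 member called, when 2.56% of all genes were called.

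The NuRD motors CHD4 and CHD3 differed in how the shRNAs compared. CHD4 (NM_001273; GRCh37 chromosome 12, 6679248 to 6723690, minus strand) stood at 441, 465 and 467 CPM in EV, at 361, 418 and 365 CPM in SH2 and at 336, 387 and 438 CPM in SH3. All 6 knockdown libraries were below EV, SH3 25 by the least, and the log2 difference of -0.25 (SE 0.10) did not pass edgeR's test (Benjamini-Hochberg adjusted p = 0.728, or 0.103 with the replicate block). CHD3 (NM_001005271; GRCh37 chromosome 17, 7788114 to 7816078, plus strand) stood at 182, 141 and 135 CPM in EV, at 131, 112 and 97.6 CPM in SH2, and at 175, 112 and 137 CPM in SH3. SH2 lay below the lowest EV library throughout, whereas SH3 overlapped EV.

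Of the remaining CHD genes, CHD1, an elongation-linked remodeller that reads H3K4 methylation, stood at 107, 119 and 103 CPM in EV, 94.4, 119 and 103 CPM in SH2 and 84.4, 111 and 101 CPM in SH3. CHD2, its close paralogue, stood at 125, 105 and 92.6 CPM in EV, 87.8, 89.8 and 74.7 CPM in SH2 and 139.9, 82.4 and 91.4 CPM in SH3. CHD6 stood at 81.9, 65.8 and 56.5 CPM in EV, 57.0, 57.3 and 44.9 CPM in SH2 and 75.6, 51.3 and 57.2 CPM in SH3. All 3 overlapped EV in SH3, whereas in SH2 CHD2 lay wholly below EV. CHD8, a CTCF and beta-catenin partner, ranged from 106 to 139 CPM over the 9 libraries. CHD8 was below EV in 6 of 6 pairs, with a log2 difference of -0.21 (SE 0.08), and CHD2 and CHD6 were below it in 5 of 6, SH3 1 being the exception for CHD2 and SH3 25 for CHD6.

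Among the class-defining BAF subunits, ARID1A was lowest against EV. ARID1A (NM_006015; GRCh37 chromosome 1, 27019727 to 27108595, plus strand), the DNA-binding subunit of canonical BAF and a tumour suppressor, stood at 254, 232 and 235 CPM in EV, at 175, 193 and 169 CPM in SH2 and at 172, 187 and 231 CPM in SH3. All 6 knockdown libraries were below EV, but SH3 25 came within 2 CPM of the lowest of them. The log2 difference was -0.36 (SE 0.10) without the block (edgeR's Benjamini-Hochberg adjusted p = 0.623) and the same size with it (SE 0.09, adjusted p = 0.074), and -0.20 with the length correction. In the block fit edgeR called it without SH3 25 (Benjamini-Hochberg adjusted p = 0.0474) or without SH3 1 (0.0191), when 0.613% and 12.2% of all genes were called. DESeq2 with the block called it along with CHD3, CHD4, CHD7 and CHD9, when 4.43% of all genes were called. ARID1B, its alternative paralogue, stood at 56.5, 56.1 and 50.1 CPM in EV, at 50.8, 58.4 and 45.9 CPM in SH2 and at 41.2, 45.5 and 53.2 CPM in SH3, with overlapping groups and a log2 difference of -0.14 (SE 0.11) that turned to 0.05 (0.049) under the length correction.

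ARID2 and BRD7 define the PBAF form and BRD9 the non-canonical form. ARID2 stood at 72.4, 95.96 and 67.9 CPM in EV, at 59.7, 86.5 and 60.6 CPM in SH2 and at 56.6, 79.6 and 63.7 CPM in SH3. Its groups overlapped, the libraries numbered 13 were the highest of each group, and 6 of 6 pairs were lower, with a log2 difference of -0.22 (SE 0.17 without the block and 0.06 with it, edgeR's Benjamini-Hochberg adjusted p = 0.902 and 0.0927). Without EV 13 the unblocked difference was -0.05 (-0.049). BRD7 stood at 77.5, 87.8 and 91.8 CPM in EV, 83.1, 95.6 and 93.7 CPM in SH2 and 66.6, 95.6 and 88.3 CPM in SH3. BRD9 stood at 124, 135 and 154 CPM in EV, 115, 136 and 146 CPM in SH2 and 96.2, 128 and 143 CPM in SH3. For both bromodomain subunits the groups overlapped and the library numbered 1 was the lowest of its group. The 5 class-defining subunits summed to 585 to 607 CPM in EV and 432 to 579 CPM in the knockdown libraries.

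**Figure D2:**
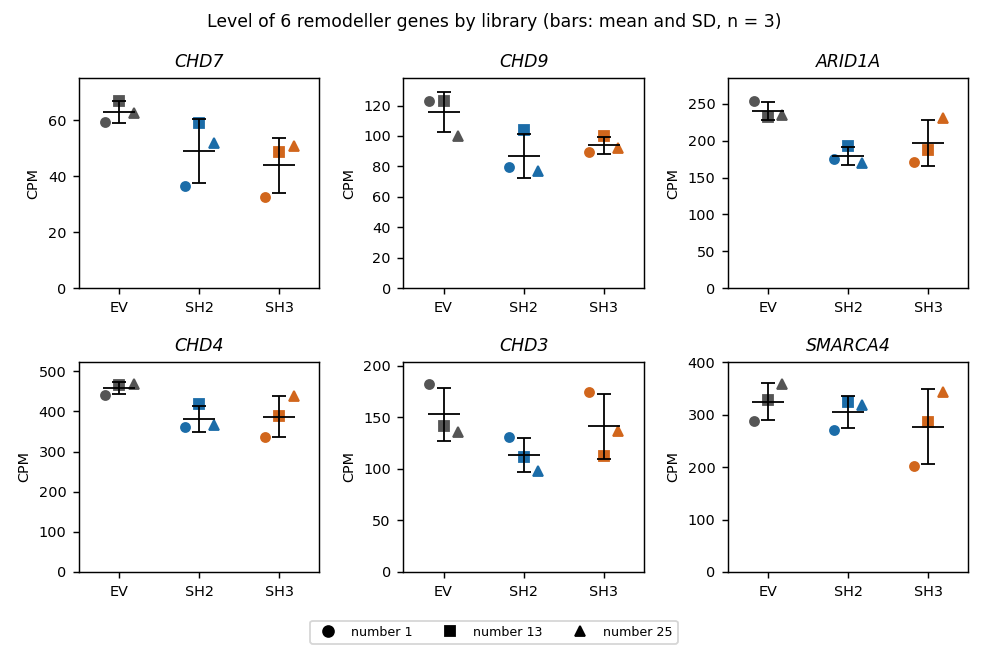
CPM (vertical axes, linear, from 0) of CHD7, CHD9, ARID1A, CHD4, CHD3 and SMARCA4 in EV, SH2 and SH3 (horizontal axis), with 1 point per library, its number by marker shape, and bars at the mean and SD of 3 libraries. ARID1A, CHD4 and CHD7 show every knockdown point under every EV point, and in CHD7 the number 1 libraries of SH2 and SH3 stand at 36.6 and 32.5 CPM.

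Both BAF motors were slightly below EV in every pair, and neither passed. SMARCA4 (BRG1) stood at 289, 329 and 358 CPM in EV, at 271, 325 and 319 CPM in SH2 and at 202, 286 and 344 CPM in SH3, with a log2 difference of -0.16 (SE 0.16). SMARCA2 (BRM) stood at 117, 106 and 98.8 CPM in EV, at 105, 97.1 and 81.0 CPM in SH2 and at 101, 97.1 and 94.5 CPM in SH3, with a log2 difference of -0.16 (SE 0.10). The groups overlapped for both genes, and the motors ran in opposite directions across the numbers, SMARCA4 being lowest and SMARCA2 highest in the libraries numbered 1. In edgeR's test the Benjamini-Hochberg adjusted p was 0.937 and 0.858, and 0.275 and 0.173 with the block. The direction for SMARCA2 depended on the RefSeq row counted, since its lower-total row gave 0.05 (0.049).

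The core and shared BAF subunits showed no common direction. Of 7 tested, 3 were below 0, with a median log2 difference of 0.03, and their summed level overlapped between EV (1089 to 1154 CPM) and the knockdowns (978 to 1165 CPM). SMARCB1 (SNF5), a core subunit lost in rhabdoid tumours, stood at 109, 124 and 119 CPM in EV, 121, 134 and 125 CPM in SH2 and 99.9, 129.7 and 121 CPM in SH3. SMARCC1, a scaffold subunit, stood at 210.5, 225 and 230.3 CPM in EV, 194, 221 and 205 CPM in SH2 and 172, 232 and 233 CPM in SH3. Both overlapped EV, and in SH3 the library numbered 1 stood apart as the lowest. The other scaffold, SMARCC2 (135 to 179 CPM), was below EV in 6 of 6 pairs at a log2 difference of -0.14 (SE 0.09). SMARCD1 stood at 109, 134 and 132 CPM in EV, 116, 148 and 134 CPM in SH2 and 78.6, 141 and 126 CPM in SH3. SMARCD3, the scarce member of that trio of accessory subunits, stood at 3.49, 2.48 and 2.27 CPM in EV, 3.18, 3.35 and 2.60 CPM in SH2 and 5.41, 3.43 and 2.84 CPM in SH3, and its groups overlapped. It had the largest positive difference of any member, 0.32 (SE 0.24, edgeR's Benjamini-Hochberg adjusted p = 0.899), which was 0.16 without SH3 1, 0.20 (0.203) without EV 25 and 0.53 (0.535) without EV 1. SMARCD2 (284 to 324 CPM) and SMARCE1 (178 to 226 CPM) differed from EV by 0.03 and 0.04 on the log2 scale.

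Of the SMARCA genes outside BAF, the ISWI motor SMARCA5 stood at 231, 243 and 246 CPM in EV, 241, 251 and 249 CPM in SH2 and 217, 246 and 244 CPM in SH3. Its log2 difference was 0.01 (SE 0.07), and the 3 groups overlapped. SMARCAD1, which assists DNA end resection, ranged from 85.8 to 97.3 CPM with no separation of groups. SMARCAL1 stood at 23.0, 18.5 and 20.6 CPM in EV, 25.3, 19.9 and 20.7 CPM in SH2 and 28.1, 19.6 and 22.2 CPM in SH3, which overlapped.

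The other ARID genes are DNA-binding regulators outside BAF. ARID4B, a subunit of the SIN3 deacetylase complex, stood at 79.1, 63.4 and 65.1 CPM in EV, 63.0, 57.7 and 54.9 CPM in SH2 and 67.9, 52.6 and 59.2 CPM in SH3. It was lower in 6 of 6 pairs although SH3 1 reached above 2 EV libraries, with a log2 difference of -0.23 (SE 0.11, edgeR's Benjamini-Hochberg adjusted p = 0.785, or 0.0906 with the block). Its paralogue ARID4A stood at 58.3, 44.4 and 42.3 CPM in EV, 48.0, 43.7 and 38.2 CPM in SH2 and 54.8, 43.2 and 44.6 CPM in SH3. ARID3A (6.39 to 8.57 CPM), ARID3B (10.5 to 15.3 CPM) and ARID5A (23.6 to 33.1 CPM) overlapped between groups. Of the 6 tested ARID genes of this kind, 5 were below 0, with a median of -0.08.

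The INO80 subunits leaned both ways. INO80, the motor, stood at 72.4, 81.2 and 78.03 CPM in EV, 65.4, 75.8 and 67.4 CPM in SH2 and 60.4, 75.4 and 75.5 CPM in SH3, lower in 6 of 6 pairs with overlapping groups and a log2 difference of -0.14 (SE 0.10). INO80D stood at 54.6, 42.3 and 43.4 CPM in EV, 36.7, 37.9 and 35.9 CPM in SH2 and 48.1, 36.8 and 42.0 CPM in SH3. SH2 lay wholly below EV and SH3 did not, and the difference of -0.25 (SE 0.11) did not pass in edgeR (Benjamini-Hochberg adjusted p = 0.761, or 0.126 with the block). INO80C stood at 34.2, 37.7 and 33.1 CPM in EV, 43.2, 38.1 and 38.3 CPM in SH2 and 35.9, 36.96 and 33.42 CPM in SH3, so that SH2 lay above EV and SH3 did not. INO80B stood at 15.6, 14.4 and 14.8 CPM in EV, 18.2, 13.7 and 15.04 CPM in SH2 and 18.9, 15.7 and 16.3 CPM in SH3. INO80E ranged from 13.5 to 19.6 CPM. The 5 subunits summed to 187 to 192 CPM in EV and 176 to 184 CPM in the knockdowns, ranges that did not overlap. That sum does not stand for a shared fall. In the block fit INO80 (-0.14) and INO80D (-0.24) were below 0, while INO80B (0.12), INO80C (0.10) and INO80E (0.08) were above it. Under the length and GC correction INO80 and INO80D were both at -0.04. How often sums of other genes separate was not counted.

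BRD3 and BRD2 were close to EV. BRD3 stood at 97.1, 87.8 and 81.7 CPM in EV, 91.5, 81.6 and 82.7 CPM in SH2 and 83.4, 77.0 and 85.95 CPM in SH3, with a difference of -0.09 (SE 0.08). BRD2 (NM_001199455; GRCh37 chromosome 6, 32936371 to 32949282) stood at 3.30, 4.42 and 3.23 CPM in EV, 3.45, 4.04 and 2.74 CPM in SH2 and 3.78, 3.71 and 3.24 CPM in SH3. Both overlapped between groups. The level of BRD2 is uncertain, because it lies in the HLA region, where only 3 of 143 protein-coding genes (2.1%) reached 10 CPM, against 46.8% of 756 on the rest of chromosome 6. The cause of that gap was not tested. BRD1, a scaffold of the MOZ and HBO1 acetyltransferase complexes (66.0 to 79.2 CPM), and BRD8, a subunit of the TIP60 complex (60.9 to 71.2 CPM), had log2 differences of -0.10 (SE 0.07) and -0.07 (SE 0.08).

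A pair of symbols that met the rule are not remodeller subunits of their own. INO80B-WBP1, a read-through annotation over INO80B and WBP1, stood at 43.9, 40.5 and 34.1 CPM in EV, 48.5, 37.3 and 37.7 CPM in SH2 and 56.2, 37.02 and 38.2 CPM in SH3, and its reads can be shared with INO80B. SMARCA5-AS1, an antisense transcript at the start of SMARCA5, stood at 18.8, 21.2 and 22.8 CPM in EV, 16.3, 21.5 and 17.9 CPM in SH2 and 12.3, 16.3 and 23.9 CPM in SH3. The libraries did not record strand, so its reads cannot be told apart from those of SMARCA5. Both overlapped between groups.

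Promoter sequence is shown for 3 members, ARID1A and CHD9 as genes below EV in all 6 pairs, and CHD3 as the CHD gene with the smallest p between shRNAs. Each run is the 250 bases before the transcription start, 5′ to 3′ on the plus strand, from RefSeq's GRCh38.p14 table and placed on GRCh37 by exact match. Capitals mark GC boxes (GGGCGG on either strand, written CCGCCC on the printed strand), the letters bound by Sp1-type factors.
ARID1A chr1:27022256-27022505: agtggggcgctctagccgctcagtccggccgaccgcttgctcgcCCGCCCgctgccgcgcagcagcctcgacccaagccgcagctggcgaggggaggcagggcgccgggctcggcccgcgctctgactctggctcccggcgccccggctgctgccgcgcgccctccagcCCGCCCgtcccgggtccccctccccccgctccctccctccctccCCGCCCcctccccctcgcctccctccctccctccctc
CHD9 chr16:53088653-53088902: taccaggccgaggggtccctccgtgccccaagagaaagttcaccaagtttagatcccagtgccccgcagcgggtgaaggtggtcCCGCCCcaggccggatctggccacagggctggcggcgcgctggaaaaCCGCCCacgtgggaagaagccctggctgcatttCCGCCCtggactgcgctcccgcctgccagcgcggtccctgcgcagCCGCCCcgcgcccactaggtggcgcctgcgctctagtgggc
CHD3 chr17:7791857-7792106: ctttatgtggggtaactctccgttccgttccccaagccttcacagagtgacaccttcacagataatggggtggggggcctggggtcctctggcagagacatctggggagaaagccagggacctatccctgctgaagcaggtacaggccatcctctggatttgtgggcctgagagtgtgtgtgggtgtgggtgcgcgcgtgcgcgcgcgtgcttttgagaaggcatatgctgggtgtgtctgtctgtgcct
Before the starts shown, ARID1A held 30 CG dinucleotides and 80.4% G or C with 3 GC boxes, and CHD9 held 22 with 70.4% and 4 boxes. CHD3 held 9 with 58.8% and none, which describes this internal start and not every CHD3 promoter. Of the members, 36 had an entry, giving 60 promoters, whose median was 20 CG dinucleotides against 11 over all 35114 promoters. The GC box was in 51.7% of member promoters and 42.6% of all. The RUNX letters TGTGGT, searched on both strands because the fusion protein keeps the RUNX1 DNA-binding domain, were in 3 of the 60 (5.0%, against 11.0% of all), and the ETS letters CCGGAAG in 7 (11.7%, against 8.52%). The AP-1 letters TGANTCA were in 3 (5.0%, against 6.57%). These are counts of letters in a window and do not show that a factor binds.

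Each shRNA was then compared with EV by itself, with the same EV libraries serving both. In SH2, the median member difference was -0.07, against 0.01 (0.0066) over all genes, with 28 of 43 members (65.1%) below 0, against 48.6%. In SH3 it was -0.11, against 0.01 (0.0144) over all genes, with 35 of 43 (81.4%) below 0, against 46.9%. Under the length and GC correction, 21 members (48.8%, against 44.8% of all genes) were below 0 in SH2. For SH3 that count was 28 (65.1%, against 48.6%). Without the block, edgeR called 0 members for either shRNA and DESeq2 called 0, while 6 members in SH2 (14.0%, against 5.37% of all genes) and 2 in SH3 (4.65%, against 5.09%) had an unadjusted edgeR p under 0.05. With the replicate block edgeR also called 0 members in SH2 and 0 in SH3, when 0.282% and 0.416% of all genes were called. At an unadjusted p under 0.05 that fit held 13 members in SH2 (30.2%) and 9 in SH3 (20.9%), against 18.7% of all genes in either. DESeq2 with the block called 4 members in SH2 (2.6% of all genes) and 1 in SH3 (3.34% of all genes). Without SH3 1 the block fit called 11 members in SH2, when 11.3% of all genes were called, and 2 in SH3 (CHD7 and ARID5B), when 2.58% were. Without SH3 13 it called CHD3, CHD6 and CHD9 in SH2, when 1.82% of all genes were called. Nearest to the threshold in the block fit were CHD9 (log2 difference -0.42, edgeR's Benjamini-Hochberg adjusted p = 0.0738) and CHD3 (-0.43, adjusted p = 0.0738) in SH2 and CHD7 (-0.55, adjusted p = 0.0508) in SH3. For the same genes the other shRNA gave -0.30 for CHD9 and -0.12 for CHD3 in SH3, and -0.39 for CHD7 in SH2.

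Between the shRNAs themselves, no member passed. In edgeR's test of SH3 against SH2, 0 members were called without the block, 0 had an unadjusted p under 0.05 and DESeq2 called 0. With the replicate block 0 were called, against 0.106% of all genes, and 6 (14.0%) had an unadjusted p under 0.05, against 11.9% of all genes. INO80C (-0.17, SH3 minus SH2) and CHD3 (0.32) had the smallest p without the block, both at an edgeR Benjamini-Hochberg adjusted p of 0.998. With the block, CHD3 (0.31, adjusted p = 0.236) came first. Without SH3 13, edgeR's block fit called CHD3 (0.43, Benjamini-Hochberg adjusted p = 0.0262) and CHD2 (0.45), when 1.8% of all genes were called.

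ARID5B, a co-factor of the histone demethylase PHF2 and a locus of inherited leukaemia risk, depended on a single library. It stood at 13.5, 19.5 and 10.9 CPM in EV, 15.4, 22.4 and 12.9 CPM in SH2 and 15.9, 12.7 and 6.15 CPM in SH3. SH2 exceeded EV by 0.19 to 0.24 on the log2 scale in all 3 pairs, whereas SH3 exceeded it by 0.24 in number 1 and was below it by -0.61 and -0.83 in numbers 13 and 25. The groups overlapped, and the SH3 minus SH2 difference of -0.57 did not pass edgeR's block fit (Benjamini-Hochberg adjusted p = 0.275). Without SH3 1 it was -0.92 and passed the edgeR test (adjusted p = 0.00281), when 0.704% of all genes were called. Without all libraries numbered 1 it was -0.93 (edgeR adjusted p = 0.00121), when 0.923% of all genes were called. With all 9 libraries the block fit called 0.106%.

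Transcript length moved with the knockdown difference. The remodellers are long genes, with a median transcript of 5661 nt against 3048 nt over the 13782 tested genes with a length. Over those genes the log2 difference in the block fit was lower in longer transcripts (Spearman's rho across genes -0.356), and over the 43 members rho was -0.733. Both are descriptions, since genes share their libraries and are not independent replicates. In the longest of 5 equal classes of genes, from 5428 nt upwards, 22 of 23 members were below 0 with a median of -0.17, while the median of the 2756 genes of that class was -0.11 and 74.7% of them were below 0. Of all 43 members, 28 lay below the median of their own length class, and over all 43 the median difference from it was -0.04 on the log2 scale. The slope of log2 CPM on log2 length was 0.477 to 0.511 in the EV libraries and 0.437 to 0.475 in the knockdown libraries, which did not overlap.

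A correction of each library for length and GC content, which by its construction takes out a length-related shift, gave 0 member calls (0.189% of all genes called). Spearman's rho with length became -0.0432 over all genes, but was still -0.409 over the 43 members. The block fit on the same genes with no correction also gave 0 member calls (0.537% of all genes), with edgeR's Benjamini-Hochberg adjusted p at 0.0551 for CHD7 and 0.0599 for CHD9. With the correction CHD7 differed by -0.27 (edgeR's Benjamini-Hochberg adjusted p = 0.159), CHD9 by -0.20 (adjusted p = 0.176), ARID1A by -0.20 and ARID4B by -0.17. The median of the 23 long members became -0.05, against 0.00 (0.002) for their class, and all 8 CHD genes were again below 0, with a median of -0.10. The part of length in the lower levels of the CHD and ARID1A transcripts was not tested apart from this correction.

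**Figure D3:**
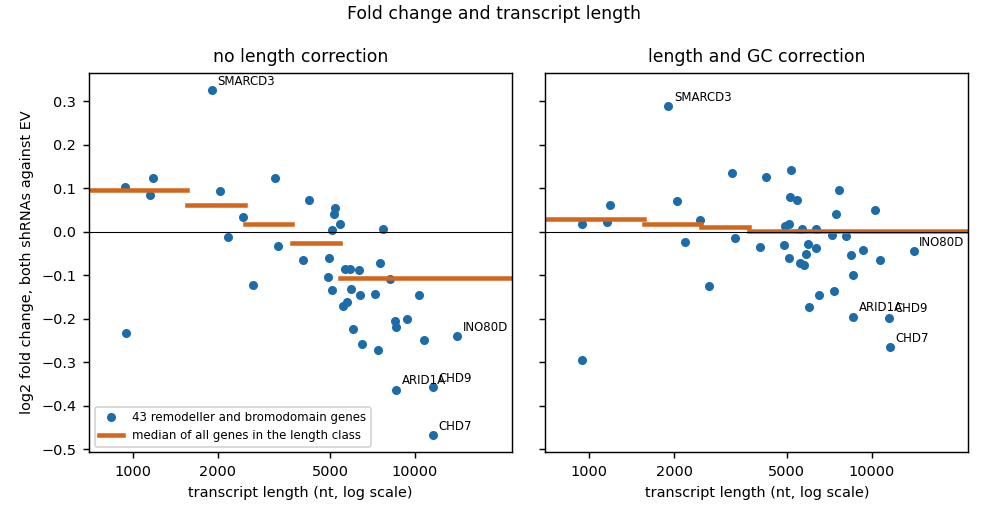
Log2 difference of both shRNAs against EV in the replicate block fit (vertical axis) against transcript length in nt (horizontal axis, log scale) for the 43 tested members (points), without (left) and with (right) the length and GC correction, and orange lines at the medians of 5 length classes of all genes. Class medians run from 0.10 in the shortest class to -0.11 in the longest on the left and lie near 0 on the right, and CHD7, ARID1A and CHD9 are the lowest points on the left.

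The libraries numbered 1 differed from those numbered 13 and 25 in more genes than the knockdown libraries differed from EV. In the edgeR fit with group and number, 23 of 43 members passed (53.5%, against 46.3% of all genes), 11 of them higher in number 1 (24.1% of all genes) and 12 lower (22.2%), so the member share lay near the background. Under the length and GC correction 25 passed (58.1%, against 51.6% of all genes), 21 of them the same genes with the same sign. SMARCD1 (-0.43, SE 0.09) and CHD7 (-0.43, SE 0.09) were furthest below, and SMARCD3 (0.50, SE 0.15) and CHD3 (0.41, SE 0.08) furthest above, with edgeR Benjamini-Hochberg adjusted p of 0.00349, 0.00456, 0.0198 and 0.00227. With 1 library left out, SMARCD1 ranged from -0.513 to -0.283, CHD7 from -0.601 to -0.34 and CHD3 from 0.349 to 0.456. SMARCD1 was lowest and CHD3 highest in number 1 of every group. The gap was uneven for CHD7, at 59.4 CPM against 67.0 and 62.4 in EV but 32.5 against 48.5 and 50.6 in SH3. SMARCD3 in SH2 1 (3.18 CPM) lay between SH2 13 and SH2 25 (3.35 and 2.60). In 7 members (16.3%, against 26.5% of all genes) the 3 number 1 libraries lay outside the range of the 6 others: ARID4A, INO80B-WBP1 and SMARCAL1 above it, and BRD7, BRD9, SMARCD1 and SMARCA5, which did not pass, below it. The others higher in number 1 were CHD2, CHD6, ARID4B, INO80B, INO80D and SMARCA2, and the others lower included SMARCA4, SMARCA5-AS1, ARID2, SMARCC1, CHD1, INO80 and SMARCB1. Without SH3 1 the count was 14, when 33.9% of all genes were called, and without the libraries numbered 25 it was 5, when 15.3% were.

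**Figure D4:**
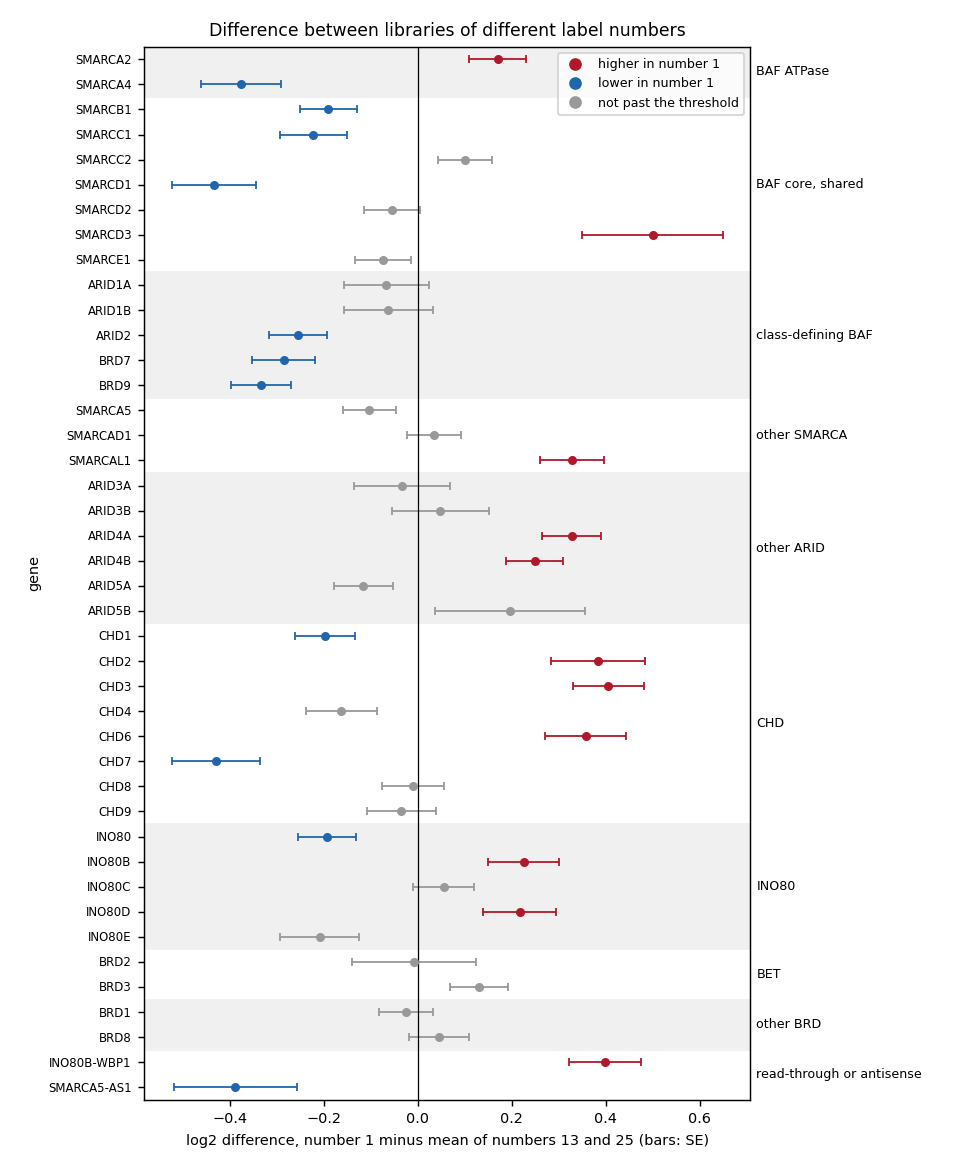
Log2 difference of the libraries numbered 1 from the mean of those numbered 13 and 25 (horizontal axis) for 42 of the 43 tested members, with bars of 1 standard error, coloured where edgeR's test was passed (red higher, blue lower) and grey where it was not. Values run from -0.43 for SMARCD1 to 0.50 for SMARCD3, and passing members lie on both sides of 0.

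The ratios of 4 pairs of paralogous subunits separated the number 1 libraries, and that of a further pair did not. These ratios, of CPM per kb of transcript, were chosen after the values were seen and have no test. The ratio of SMARCA4 to SMARCA2 was 2.07 to 2.66 in the 3 number 1 libraries and 3.04 to 4.06 in the 6 others, and that of CHD4 to CHD3 was 2.18 to 3.14 against 3.65 to 4.26. SMARCC1 to SMARCC2 gave 0.894 to 1.03 against 1.06 to 1.38, and SMARCD1 to SMARCD3 gave 8.43 to 21.2 against 23.9 to 33.7. None of these ranges overlapped between numbers, whereas all 4 overlapped between EV and knockdown. How often ratios of other gene pairs separate in this way was not counted. For single genes, the number 1 libraries lay outside the range of the others in 26.5% of all genes. The separation is therefore not shown to be particular to these paralogues. ARID1A to ARID1B overlapped between numbers, at 4.13 to 5.40 against 3.95 to 5.64.

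SMARCA2 was a member whose transcript rows parted. The files count a short RefSeq row (NM_001289400) beside the long one (NM_001289396), and the short row held 44.3% to 46.3% of the long row's reads in EV and 46.9% to 57.4% in the knockdowns, without overlap. The long row was lower than EV in 6 of 6 pairs, while the short row was lower in 1 of 6. Long minus short gave 55.0 to 63.0 CPM in EV and 41.0 to 50.1 CPM in the knockdowns. These rows were chosen after the values were seen and have no test. In CHD2 (15.9% to 19.8% in EV, 13.8% to 18.1% in knockdowns) the shares overlapped, and the 2 rows of ARID1A gave mean pair ratios of -0.36 (-0.365) and -0.37. Between the highest-total row and a lower one, the mean log2 pair ratio also differed in SMARCAD1 (0.006 and 0.075) and BRD2 (-0.059 and 0.124). The part of row length in these differences was not tested.

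**Figure D5:**
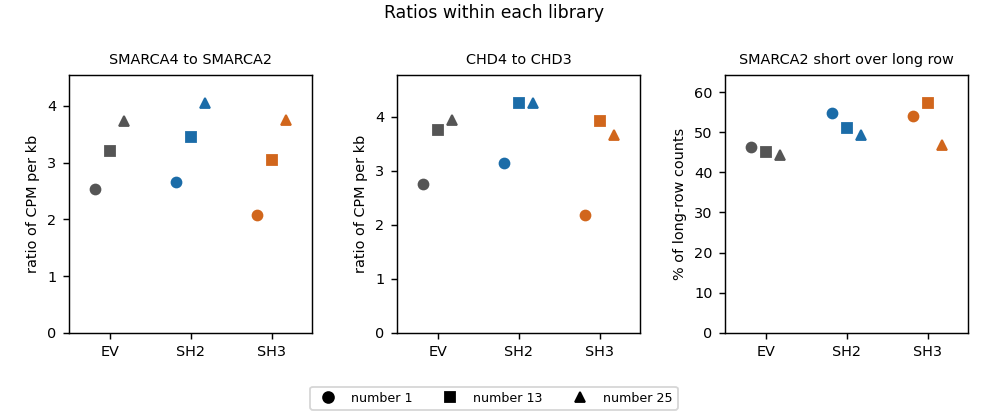
Ratios in each of the 9 libraries by group (horizontal axis), 1 point per library with its number by marker shape: SMARCA4 to SMARCA2 and CHD4 to CHD3 (vertical axes, CPM per kb over CPM per kb) and the SMARCA2 short row as a percent of the long row's counts. The number 1 points are lowest in the first pair of panels (2.07 to 2.66 against 3.04 to 4.06 for SMARCA4 to SMARCA2), and in the last the EV points (44.3% to 46.3%) lie below the knockdown points.

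Partner subunits outside the rule were listed for each family, and 76 of 82 were tested. For both shRNAs against EV, edgeR without the block called 0 of them. With the replicate block 1 of the 76 fell, when 1.1% of all genes were called: BPTF, the large NURF subunit of the ISWI family, at -0.44 (Benjamini-Hochberg adjusted p = 0.0377). That call was lost under the length and GC correction (-0.26, edgeR adjusted p = 0.1) and without any 1 of SH2 1, SH2 13, SH2 25, EV 1, EV 13 or EV 25, where the adjusted p was 0.0521 to 0.217. The correction fit called 0.189% of all genes, and these leave-out fits called 0.0141% to 0.176%. The remaining values are from the block fit, in which no other partner passed edgeR's test. In the ISWI list RSF1 (-0.27, adjusted p = 0.0845) came next. In the BAF list, PBRM1 (-0.23) and BCL7C (0.20) had the smallest p, and 8 of 12 were below 0. In the NuRD list HDAC1 (0.13) came first, and 4 of 12 were below 0. In the INO80 and SRCAP list the motor SRCAP (-0.42) and ACTR6 (0.36) came first, both at an adjusted p of 0.0624, and 6 of 16 were below 0. Among other SNF2 motors RAD54L2 (-0.63, adjusted p = 0.0696) and ATRX (-0.25) came first, and 8 of 11 were below 0. Among other bromodomain genes TAF1 (-0.27, adjusted p = 0.0629) and the acetyltransferase EP300 (-0.40, adjusted p = 0.069) came first, and 15 of 17 were below 0. Over all 76 partners, 47 were below 0 with a median of -0.05, while 47.9% of all genes were below 0. The part of transcript length in these directions was not tested. For number 1 against 13 and 25, 40 of the 76 partners passed, 14 higher and 26 lower, against 46.3% of all genes.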

How the data were processed

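Total RNA of SKNO-1 cells was sequenced as unstranded poly(A) libraries (Illumina TruSeq). The labels' extraction text describes sorted bone marrow cells, whereas their source field names the cell line, which was used here. The authors deposited raw counts, 1 value per RefSeq transcript on hg19. The submitters' processing notes name STAR, featureCounts and DESeq2, with no versions or settings. Rows of 1 gene share reads, so the row with the highest total over the 9 libraries was kept for each of 25680 symbols (48104 rows). Totals over the kept rows were 27714431 to 35406063 reads, and over all rows 2.2447 times that in sum. Count limits cover counting error only.

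Counts were tested with edgeR 4.0.16 in R 4.3.3 (filterByExpr with a minimum count of 10 and total of 15, TMM, quasi-likelihood F test, two-sided), in 1 fit over all 3 groups with 6 residual degrees of freedom, and with the library number as a replicate block with 4. Benjamini-Hochberg adjustment ran over all 14199 genes at a threshold of 0.05. The common biological coefficient of variation was 0.1922, and 0.08746 with the block. Deviations from group means correlated across genes at 0.398 to 0.731 in 9 same-numbered pairs and at -0.616 to 0.306 in 18 others, and on this the numbers were taken to pair the libraries. The study's methods name Cuffdiff, which was not run on these counts. Lengths, GC content and GRCh37 coordinates came from GENCODE v44lift37 and may be of another transcript than the deposited row. The correction fitted smooth terms of log2 length and GC per library (mgcv 1.9.3) as offsets in the block fit. DESeq2 1.42.0, other scaling, no filter, other rows and leaving out libraries were tried as alternatives. Scripts were tested on simulated data. The members, gene lists and role groups were chosen with earlier results of these data known. Per-library values were given for fixed central subunits, members past the threshold in any comparison, the 4 with the largest difference for both shRNAs, and the 2 smallest p between shRNAs and between numbers. ARID5B was given after its values were seen. Values of 1 member and 1 marker gene are not reported here.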

Additional observations from a re-analysis of the deposited data

How the results depend on the processing

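Without the block, 0 members were called for both shRNAs against EV under every alternative that kept the libraries unblocked, and the replicate block called 2. The block fit called 1.1% of all genes. Starting from those 2 paired calls, it gave 0 with genes restricted to those with a length (0.537% of all genes called), 0 with the length and GC correction (0.189%) and 0 with all RefSeq rows summed (0.261%). It gave 1 with relative log expression scaling (0.944%), 2 with the lower-total RefSeq row (1.22%), 3 with no low-count filter (2.83%) and 5 with DESeq2 (4.43%). With 1 library or number left out it gave 0 to 10, when 0.00704% to 12.2% of all genes were called. The cause was not tested. From 0 calls in the block fit, SH2 went to 4 with DESeq2 (2.6% of all genes called) and 4 with no low-count filter (1.54%). It went to 12 with only the SH2 and EV libraries (14.5%) and 0 to 11 with libraries left out (0.0% to 11.3%). SH3 went to 1 with DESeq2 (3.34%), 1 with no filter (2.06%) and 0 to 2 with libraries left out (0.00704% to 2.58%). With libraries left out, SH3 against SH2 went to 0 to 2 (0.0% to 1.8%). The median member difference moved to -0.02 (-0.023) for both shRNAs and to 0.00 (0.003) for SH2 under the length and GC correction, and with libraries left out the SH2 median ranged from -0.148 to -0.042 without the block and from -0.131 to -0.026 with it. For number 1 against 13 and 25 the count was 5 to 22 with libraries left out, and the median was -0.108 under the correction and -0.109 to 0.0 with libraries left out. ASXL2 passed with the block (-1.086), with genes restricted to those with a length (-1.085), with the correction (-0.896) and with DESeq2 (-1.075), and ranged from -1.177 to -1.001 with libraries left out. The direction reversed for SMARCA2 with its lower-total RefSeq row (0.049 without the block, 0.045 with it), and for ARID1B under the correction (0.049). For number 1, every named difference kept its sign. A fit of only the groups compared could not be made for both shRNAs or for the numbers, which use all 3 groups.

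CHD5, ARID3C and SMARCA1 had too few reads to be tested. The alternatives run within the block fit were chosen after seeing the data, other than the length and GC correction, the restriction to genes with a length and leaving out a whole number.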
